A study of Rattus norvegicus with 12 samples.

Results

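Mitosis genes were compared between rat embryos homozygous for a huntingtin transgene and wild-type embryos, for a set of 49 genes that encode the spindle assembly checkpoint, kinetochore and centromere proteins, cyclins, mitotic kinases, kinesins, spindle proteins and the machinery of cytokinesis and mitotic exit. A member was taken as measured where the array held a probe set annotated to that gene alone, and the brightest such probe set was used. That held for 41 of the 49 genes, among 14506 genes measured in all. Cenpe, Cenpf, Spc24, Kif18a, Anln, Mki67, Cdca5 and Espl1 were not analysed here.

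The 6 BACHD+/+ embryos were homozygous for a bacterial artificial chromosome bearing the human huntingtin gene in full length, mutated to 96 CAG repeats, the kind of expansion that causes Huntington disease, and the 6 wild-type embryos lacked it. Both groups came from 3 transgenic dams, time-bred and dissected on a single day, and each array (Affymetrix rat Gene ST) held the RNA of 1 embryo's whole ganglionic eminence at embryonic day 14. The medial and lateral eminences, the proliferating ventral forebrain from which striatal projection neurons and many interneurons arise, were pooled per embryo and the meninges removed. The values are log2 intensities, so that a difference of 1 is a doubling.

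In mitosis, the spindle assembly checkpoint holds cells in metaphase until every kinetochore, the protein plate on the centromere, is attached to spindle microtubules. Unattached kinetochores recruit the kinases Ttk and Bub1, and Mad2l1 (the Mad2 protein) and Bub1b then bind Cdc20 in an inhibitory complex, which keeps the anaphase-promoting complex from marking securin and cyclin B for destruction. In the embryonic ganglionic eminence, radial glia and intermediate progenitors divide in the ventricular and subventricular zones, and transcripts of these genes are taken to come largely from dividing cells. Which cells gave the RNA was not measured here. In RNA of whole tissue, fewer dividing cells and less RNA per dividing cell cannot be told apart.

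Mitotic genes are known in human and mouse cells to be switched on late in the cell cycle through a promoter element called the cell cycle genes homology region, with the core letters TTTGAA or TTTAAA, to which MuvB complexes bind with B-Myb and FoxM1, often beside CCAAT boxes bound by NF-Y. The RefSeq promoters of the rat assembly GRCr8, 250 bases before to 50 after each start, held 43 entries for 42 members. Aurkb, Ccna2, Cdca2, Pbk, Racgap1, Tpx2 and Ube2c had none. Read on both strands, TTTGAA stood in 29 of 43 member promoters (67.4%), against 18.3% of all 33469 promoters in the table, and CCAAT in 30 (69.8%), against 37.5%. TTTAAA stood in 12 (27.9%), against 13.6%. Either TTTGAA or TTTAAA stood in 36 (83.7%), against 28.3%, and TTTGAA together with CCAAT in 22 (51.2%), against 7.41%. Only 2 matches of different motifs shared a base. Among the checkpoint and kinetochore members TTTGAA stood in 9 of 12 promoters. Windows of 30 bases around the element are shown, 5′ to 3′ on the gene's strand, for the 5 checkpoint members and for Plk1 and Kif15, the members with the smallest p among the higher ones. Capitals mark the element, which reads TTCAAA where it lies on the opposite strand.
Mad2l1, chr4:97236524-97236553, plus strand, element at base 28 after the start: ttcgtagttactTTTGAAccgggtggcggg
Bub1, chr3:135504947-135504976, minus strand, 43 bases before the start: ataatccctatgTTTAAAaaaaaatggtta
Bub1b, chr3:126017051-126017080, plus strand, 4 bases before the start: ggagacgttaaaTTTGAAagttggcggccc
Ttk, chr8:93634631-93634660, plus strand, element at base 5 after the start: gcagcggggaaaTTCAAAcgtgtttccgga
Cdc20, chr5:137255833-137255862, minus strand, 51 bases before the start: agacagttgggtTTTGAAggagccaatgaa
Plk1, chr1:186147652-186147681, plus strand, element at base 7 after the start: cccagcgctgcgTTTGAAttcggggaggag
Kif15, chr8:131479346-131479375, plus strand, 46 bases before the start: ggcggcgccaagTTCAAAtctgcggccatc
The Mad2l1 promoter held 1 match, the TTTGAA shown, and no TTTAAA or CCAAT. A match describes the letters of the window, not binding.

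All 41 measured members were brighter than the median probe set. The array medians were 7.69 to 7.76 in homozygous embryos and 7.67 to 7.71 in wild-type embryos. Wild-type embryos 1 and 2 had the lowest array weights (0.487 and 0.392). Some results that turn on them are therefore also given without them, a setting chosen after the data were seen. Homozygous embryo 1 had the next lowest weight (0.744) and was kept in that setting. All 10 measured markers of the ganglionic eminence were brighter than the median probe set, and their summed linear intensity was 27627 to 30500 in homozygous embryos and 27778 to 30097 in wild-type embryos. Single markers differed in both directions. Nkx2-1, with the smallest p, differed by 0.16 ± 0.0403 (SE, limma adjusted p = 0.108). Dlx5, named after its values were seen, differed by -0.18 ± 0.0804 (SE, limma adjusted p = 0.321). The probe set of rat Htt was higher in homozygous embryos, at 10.26 ± 0.0967 against 9.97 ± 0.114 (SD, n = 6 each), a difference of 0.30 ± 0.0556 (SE, limma adjusted p = 0.0408).

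Of the 41 mitosis genes, Mad2l1 alone passed the threshold of the test, a limma adjusted p under 0.05 over all probe sets, and it fell. No member was called higher, and 40 members did not pass. Over all genes 0.469% were called, 0.2% higher and 0.269% lower. Mad2l1 had a lowest value of 10.74, a median of 10.82 and a highest value of 10.88 in homozygous embryos, against 10.97, 11.05 and 11.08 in wild-type embryos. The groups did not overlap, and a gap of 0.0965 separated the highest homozygous embryo from the lowest wild-type embryo. The means were 10.82 ± 0.0487 and 11.03 ± 0.0435 (SD, n = 6 each). The difference was -0.22 ± 0.0295 (SE), with a 95% interval of -0.28 to -0.15 and a limma adjusted p of 0.0164, and it was 0.860-fold on the linear scale. Intensity thus fell by 14.0%, with an interval of -17.6% to -10.1%. By p, Mad2l1 ranked 2 among the 14506 genes. The exact permutation test over the 924 assignments of the embryos gave a two-sided p of 0.00216, the smallest it can give. Any gene whose groups do not overlap gives this p. Mad2l1 was singled out with its fall in these data already known, so neither its rank nor its p is independent support. Among the settings that left out an embryo or changed the variance model, the call ended when homozygous embryo 5 (adjusted p = 0.0559) or wild-type embryo 5 (adjusted p = 0.0621) was left out, and with a model that has no intensity trend (adjusted p = 0.0596), each by limma. Without wild-type embryos 1 and 2 the difference was -0.21 ± 0.0322 (limma adjusted p = 0.0105).

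**Figure D1:**
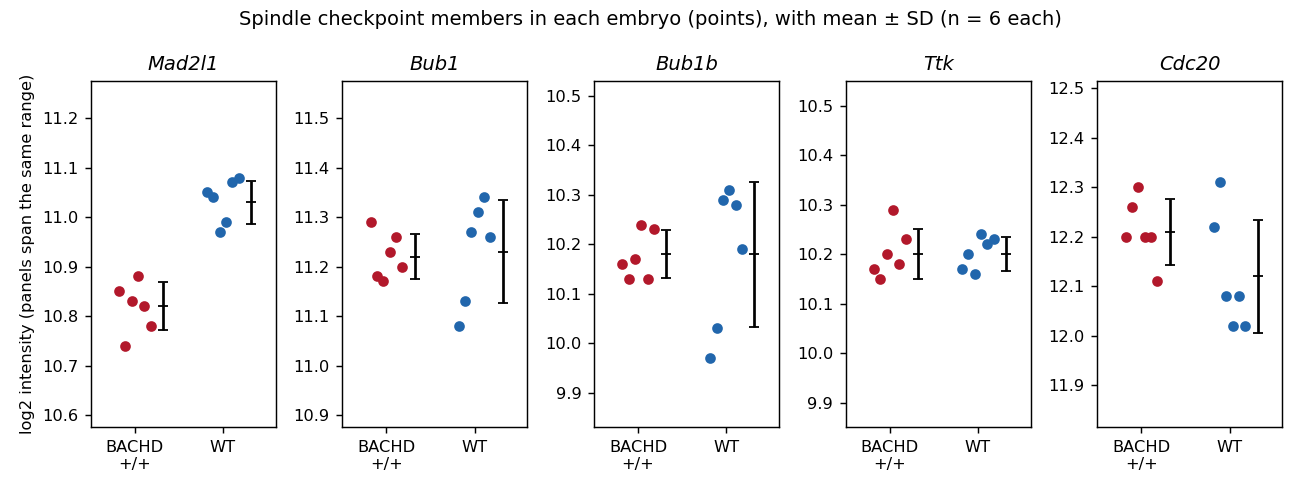
Log2 intensity (vertical axis) of the 5 spindle checkpoint members in each embryo, with homozygous BACHD+/+ embryos in red left of wild-type embryos in blue, and the mean ± SD of each group in black (n = 6 each). The Mad2l1 groups are separate (10.74 to 10.88 against 10.97 to 11.08), while the groups of Bub1, Bub1b, Ttk and Cdc20 overlap.

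The other 4 checkpoint members did not pass. Bub1, the kinase that marks centromeric chromatin and recruits other checkpoint proteins, had a lowest, median and highest value of 11.17, 11.22 and 11.29 in homozygous embryos, against 11.08, 11.26 and 11.34 in wild-type embryos. Bub1b, which encodes BubR1, the partner of Mad2 in the inhibitory complex, had 10.13, 10.16 and 10.24 in homozygous embryos, against 9.97, 10.24 and 10.31 in wild-type embryos. For both genes the wild-type values enclosed the homozygous ones, with wild-type embryos 1 and 2 the lowest of all 12. The difference of Bub1 was -0.0078 ± 0.0430 and that of Bub1b -0.000185 ± 0.0571 (SE, limma adjusted p = 0.943 and 0.999). Without wild-type embryos 1 and 2 they were -0.07 ± 0.0281 and -0.09 ± 0.0337 (limma adjusted p = 0.237 and 0.212).

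Ttk, the Mps1 kinase at the head of the checkpoint, had 10.15, 10.19 and 10.29 in homozygous embryos, against 10.16, 10.21 and 10.24 in wild-type embryos. The groups covered almost the same values, and the difference was 0.0017 ± 0.0297 (limma adjusted p = 0.983), or -0.036 with each array centred on its median. Cdc20, the activator of the anaphase-promoting complex that Mad2 holds, had 12.11, 12.20 and 12.30 in homozygous embryos, against 12.02, 12.08 and 12.31 in wild-type embryos. The difference of Cdc20 was 0.09 ± 0.0483 (limma adjusted p = 0.387). Wild-type embryos 1 and 2, at 12.22 and 12.31, lay among or above the homozygous embryos, and the other 4 wild-type embryos, at 12.02 to 12.08, lay below all of them. Without wild-type embryos 1 and 2, Cdc20 rose by 0.16 ± 0.0328 (limma adjusted p = 0.0295). In that setting 2 of 41 members were called, 1 higher and 1 lower. The share of all genes was 2.5%, 1.59% higher and 0.917% lower. That setting was chosen after the data were seen and leaves out the highest wild-type values of Cdc20. With array weights Cdc20 differed by 0.13 ± 0.0389 (limma adjusted p = 0.111). With a covariate for dim against bright probe sets it differed by 0.13 ± 0.0465 (limma adjusted p = 0.263). Neither of these planned settings called it.

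The 4 kinetochore and centromere members that were measured did not pass either. Cenpa, the histone H3 variant that marks centromeres, had 9.65, 9.69 and 9.75 in homozygous embryos, against 9.60, 9.63 and 9.76 in wild-type embryos. Nuf2 and Ndc80, which form the arm of the Ndc80 complex that grips microtubules, lay within overlapping groups. Nuf2 had 10.40, 10.45 and 10.50 in homozygous embryos, against 10.38, 10.43 and 10.47 in wild-type embryos. Ndc80 had 11.03, 11.12 and 11.28 in homozygous embryos, against 10.92, 11.08 and 11.21 in wild-type embryos. Spc25, of the end of that complex that faces the centromere, had 10.66, 10.76 and 10.81 in homozygous embryos, against 10.74, 10.80 and 10.86 in wild-type embryos. The differences were 0.05 ± 0.0340 for Cenpa, 0.02 ± 0.0259 for Nuf2, 0.07 ± 0.0581 for Ndc80 and -0.05 ± 0.0316 for Spc25 (SE, limma adjusted p = 0.527, 0.673, 0.588 and 0.503). That of Nuf2 was -0.014 with each array centred on its median, and those of Cenpa and Ndc80 were 0.03 and 0.04 without wild-type embryos 1 and 2. That of Spc25 was -0.03 without homozygous embryo 6.

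Mad2l1 was then set against these 8 genes embryo by embryo, each value taken relative to the wild-type mean of its gene. In homozygous embryos 1 to 6, Mad2l1 stood at -0.18, -0.29, -0.21, -0.16, -0.21 and -0.25. The median of the other 8 genes in the same embryos was -0.01, -0.01, 0.01, 0.07, 0.01 and -0.02, and the lowest of them was -0.06, -0.07, -0.06, -0.01, -0.05 and -0.14. Mad2l1 was thus the lowest of the 9 genes, and also of all 41 members, in each of the 6 homozygous embryos. In wild-type embryos its place, counted from the lowest, lay between 1 and 8 of 9 and between 4 and 35 of 41. Mad2l1 minus the median of the other 8 was -0.28 to -0.17 in homozygous embryos (median -0.225) and -0.10 to 0.06 in wild-type embryos (median 0.03). These values restate the contrast that chose Mad2l1 and carry no test. In every setting tried, no other measured member had a lower difference than Mad2l1. This standing holds among the members only. The kinetochore gene Mis12, of the further lists described below, differed by -0.23, against -0.22 for Mad2l1.

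**Figure D2:**
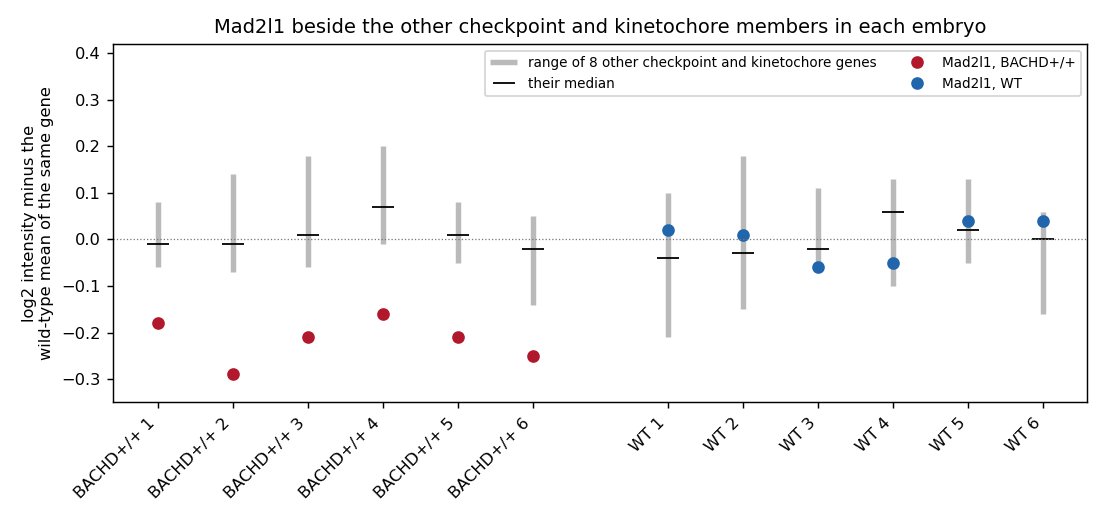
Log2 intensity relative to the wild-type mean of each gene (vertical axis) in each embryo, homozygous BACHD+/+ embryos left of wild-type embryos; points are Mad2l1, grey bars the range of the 8 other measured checkpoint and kinetochore members and black dashes their median. Mad2l1 lies at -0.29 to -0.16 in homozygous embryos, below every grey bar there, and at -0.06 to 0.04 in wild-type embryos.

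Over the whole set the differences were small. The median of the 41 differences was 0.01, with 23 above (56.1%) and 18 below 0, against a median of 0.02 and 61.4% above 0 over all genes. With each array centred on its median, every difference was lower by about 0.038, so that 13 members lay above (31.7%) and 28 below 0, with a median of -0.027, against 40.6% above 0 and a median of -0.017 over all genes. Centred in this way, the differences of the members described by embryo shrank to 0.05 for Cdc20, Kif22 and Cdca8, 0.06 for Kif15, 0.03 for Ndc80, Plk1, Cdk1 and Cdc25b and 0.0088 for Cenpa, and they grew to -0.05 for Bub1, -0.04 for Bub1b, -0.08 for Spc25, -0.10 for Kif11 and -0.19 for Cdca3, none past the threshold. The 95% interval lay wholly within 0.2 of 0 for 39 of 41 members (95.1%), against 65.7% of all genes, and Mad2l1 and Cdca3 were the exceptions. Within groups the members had a median pooled SD of 0.0544, against 0.0885 over all genes. Among the members Top2a had the smallest SD (0.0275) and Cdca3 the largest (0.119). The members were also brighter than genes at large, by the median of the mean intensities, and the figures for all genes include dim ones. Whether the members had narrower intervals or a lower SD than genes of equal brightness was not tested. An unadjusted p under 0.05 was reached by 9 of 41 members (22.0%), 6 higher and 3 lower, against 15.1% of all genes, of which 9.18% were higher and 5.93% lower. The groups did not overlap for 1 of 41 members, which was lower, against 2.2% of all genes and 0.944% for lower ones.

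**Figure D3:**
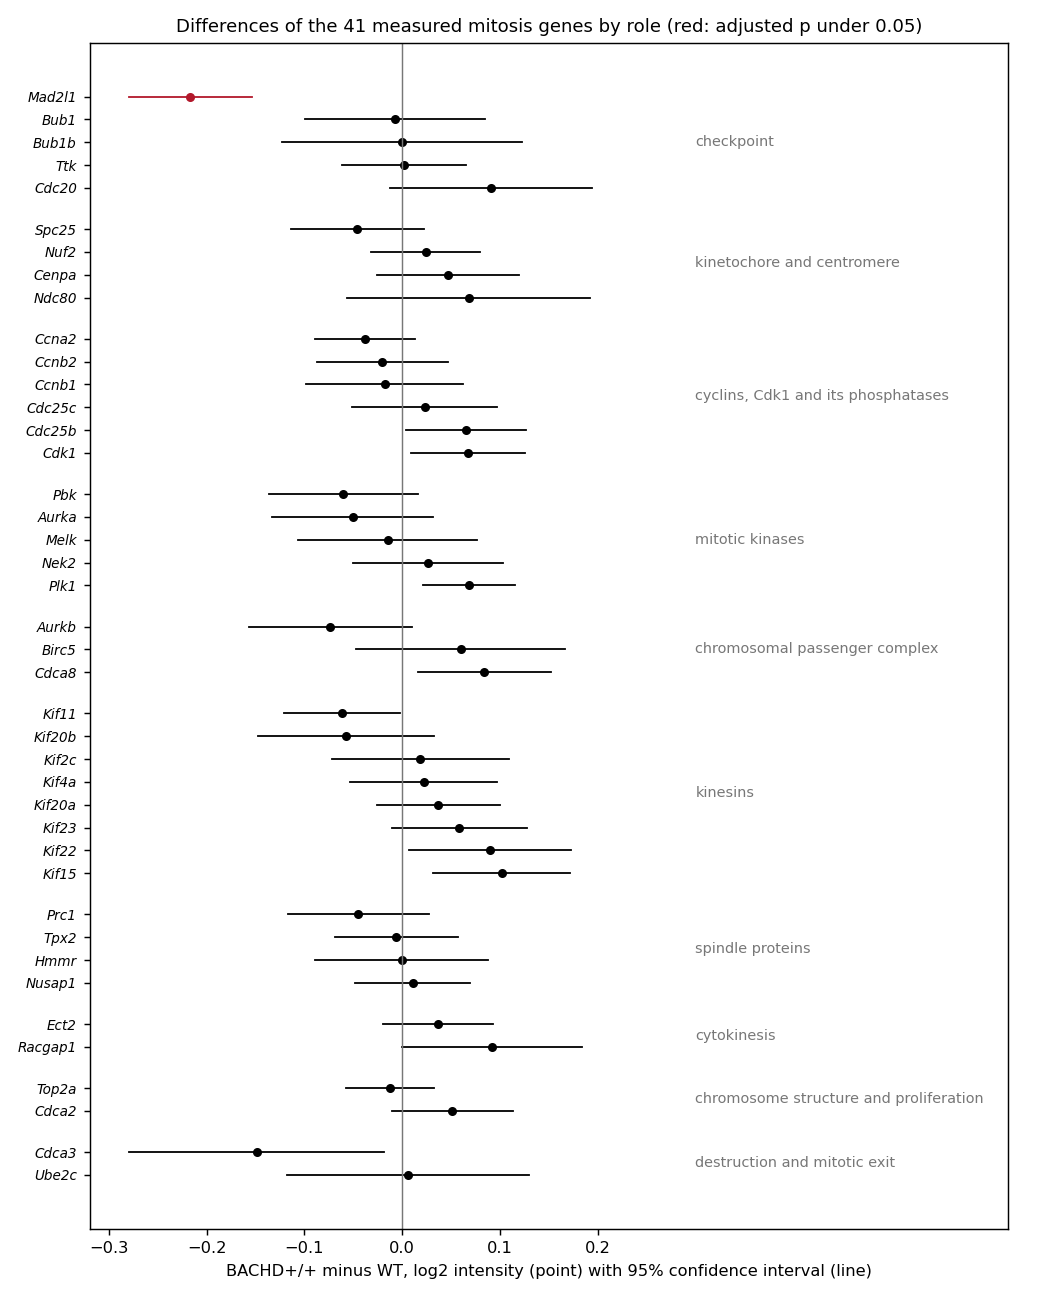
Difference in log2 intensity, homozygous BACHD+/+ minus wild type (horizontal axis), with its 95% confidence interval for the 41 measured members, grouped by role. Mad2l1, in red, is the member past the threshold (-0.22, interval -0.28 to -0.15), and the other 40 differences lie closer to 0, Cdca3 (-0.15) having the widest interval.

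Cyclins and Cdk1, whose complex drives entry into mitosis, were measured for 6 members with their phosphatases, and none passed. Cdk1 had 10.73, 10.78 and 10.87 in homozygous embryos, against 10.68, 10.73 and 10.76 in wild-type embryos, and 5 of 6 homozygous embryos lay above the highest wild-type embryo. Cdc25b, a phosphatase that activates Cdk1, had 10.76, 10.79 and 10.80 in homozygous embryos, against 10.64, 10.73 and 10.80 in wild-type embryos. The differences were 0.07 ± 0.0273 for Cdk1 and 0.07 ± 0.0287 for Cdc25b (SE, limma adjusted p = 0.277 and 0.307). Ccna2, Ccnb1 and Ccnb2, which encode cyclins A2, B1 and B2, differed by -0.04 ± 0.0239, -0.02 ± 0.0375 and -0.02 ± 0.0314, and the related phosphatase gene Cdc25c by 0.02 ± 0.0346. A second probe set of Ccnb2 also gave -0.02.

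Among the 5 mitotic kinases outside the checkpoint, Plk1 came closest to the threshold. Plk1, the kinase of centrosome maturation and spindle assembly, had 11.70, 11.75 and 11.77 in homozygous embryos, against 11.61, 11.68 and 11.70 in wild-type embryos, with 5 of 6 homozygous embryos above the highest wild-type embryo. Its difference was 0.07 ± 0.0219 (limma adjusted p = 0.179). Aurka, the centrosomal Aurora kinase, differed by -0.05 ± 0.0386, Nek2, which acts in centrosome separation, by 0.03 ± 0.0357, Melk by -0.01 ± 0.0427 and Pbk by -0.06 ± 0.0356.

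The chromosomal passenger complex corrects faulty attachments at centromeres. Of its 3 members measured, Cdca8, which encodes borealin, had 9.85, 9.96 and 9.97 in homozygous embryos, against 9.77, 9.86 and 9.91 in wild-type embryos, and 5 of 6 homozygous embryos lay above the highest wild-type embryo. Its difference was 0.08 ± 0.0317 (limma adjusted p = 0.241). Birc5, which encodes survivin, differed by 0.06 ± 0.0498 and the catalytic kinase Aurkb by -0.07 ± 0.0389. Wild-type embryos 1 and 2 were the lowest of all embryos for Birc5 (9.15 and 9.27) and the highest for Aurkb (11.48 and 11.55). Both differences lean on these embryos, so their signs are not compared.

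Of 8 measured kinesins, the motors that build and move the spindle, none passed, and 6 differences were above 0 (3 with centred arrays, against 61.4% and 40.6% of all genes in the same settings). Kif15, which helps keep the spindle bipolar, had 10.69, 10.80 and 10.83 in homozygous embryos, against 10.60, 10.68 and 10.76 in wild-type embryos, a difference of 0.10 ± 0.0329 (limma adjusted p = 0.182). Kif22, which pushes chromosome arms from the poles, had 10.58, 10.72 and 10.79 in homozygous embryos, against 10.54, 10.60 and 10.73 in wild-type embryos, a difference of 0.09 ± 0.0387 (limma adjusted p = 0.297). Kif11, the Eg5 motor that separates spindle poles, had 10.69, 10.76 and 10.78 in homozygous embryos, against 10.72, 10.82 and 10.85 in wild-type embryos, a difference of -0.06 ± 0.0278 (limma adjusted p = 0.319). All 3 genes had overlapping groups, and Kif15 and Kif11, which share the work of spindle bipolarity, differed with opposite signs. Kif23 (0.06 ± 0.0323) and Kif20a (0.04 ± 0.0294), motors of the central spindle, and Kif4a (0.02 ± 0.0353) and the microtubule depolymerase Kif2c (0.02 ± 0.0423) were above 0, and Kif20b (-0.06 ± 0.0421) was below.

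The differences of the 4 spindle proteins were -0.0060 ± 0.0293 for Tpx2, which activates Aurora A on spindle microtubules, 0.01 ± 0.0274 for Nusap1, -0.0007 ± 0.0413 for Hmmr and -0.04 ± 0.0338 for Prc1, the microtubule bundler of the midzone. The cytokinesis regulators Ect2 and Racgap1, partners in the activation of RhoA at the cleavage furrow, differed by 0.04 ± 0.0263 and 0.09 ± 0.0429. Top2a, the topoisomerase that untangles sister chromatids and a common proliferation marker, differed by -0.01 ± 0.0208, with an interval of -0.06 to 0.03. Cdca2 differed by 0.05 ± 0.0288. None of these 8 passed.

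Ube2c, the ubiquitin-conjugating enzyme of the anaphase-promoting complex, differed by 0.0063 ± 0.0578. Cdca3, which acts in mitotic entry and is itself destroyed at mitotic exit, had 10.72, 10.75 and 10.79 in homozygous embryos, against 10.79, 10.83 and 11.22 in wild-type embryos, and 5 of 6 homozygous embryos lay below the lowest wild-type embryo. Its difference of -0.15 ± 0.0607 (limma adjusted p = 0.278) was the lowest after that of Mad2l1. Wild-type embryos 1 and 2, at 10.95 and 11.22, were the highest, and without them the difference was -0.06 ± 0.0234 (limma adjusted p = 0.252).

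Within the wild-type group, members differed between embryos 1 and 2 and the other 4 embryos about as often as genes at large. Embryos 1 and 2 both lay above all of embryos 3 to 6 for 10 of 41 members (24.4%), against 21.8% of all genes, and below them for 8 (19.5%), against 18.8%. On average embryos 1 and 2 exceeded embryos 3 to 6 by 0.27 for Cdca3, 0.25 for Ube2c, 0.21 for Cdc20 and 0.17 for Hmmr. They were lower by the differences of -0.27 for Bub1b, -0.20 for Birc5, -0.19 for Bub1 and Kif2c and -0.17 for Racgap1. For Mad2l1 this difference was 0.02. The homozygous minus wild-type differences of Birc5, Ube2c, Hmmr, Kif2c and Racgap1 lean on wild-type embryos 1 and 2, and are not given without them. The SD was larger in wild-type than in homozygous embryos for 31 of 41 members (75.6%), against 63.7% of all genes.

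**Figure D4:**
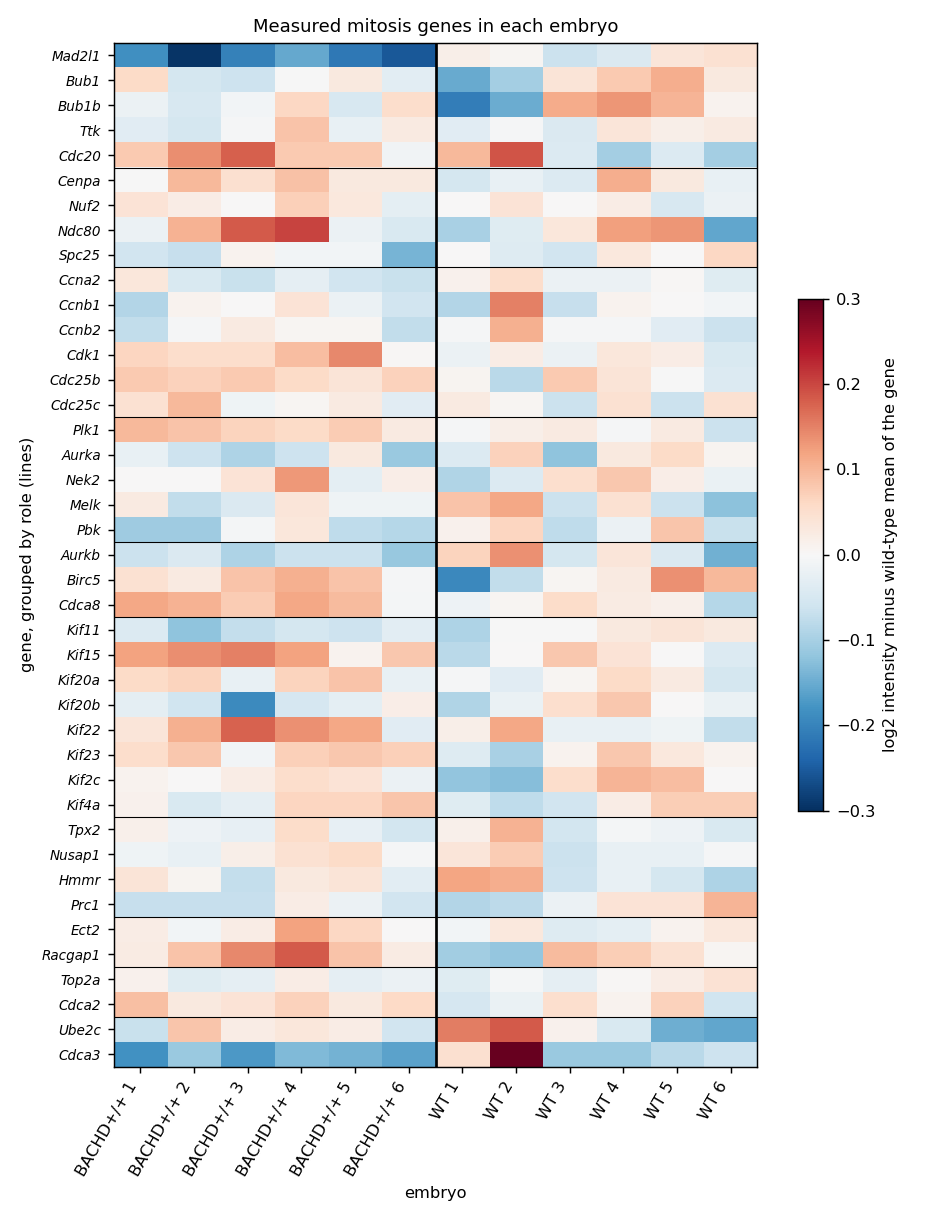
Log2 intensity relative to the wild-type mean of each gene (colour, red higher and blue lower) for the 41 measured members (down the page, grouped by role) in 6 homozygous BACHD+/+ embryos, left of the black line, and 6 wild-type embryos, right of it. Mad2l1 is blue in all homozygous embryos (-0.29 to -0.16), and wild-type embryos 1 and 2 differ from the other wild-type embryos for genes such as Bub1b, Cdc20, Ube2c and Cdca3.

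Further genes of the pathway were taken from 5 lists of 102 symbols in all, older and newer names counted apart, of which 71 were measured. None passed the threshold. An unadjusted p under 0.05 was reached by 14 (19.7%), 4 higher and 10 lower. Over all genes the share was 15.1%, of which 9.18% were higher and 5.93% lower. The median difference was -0.03, against 0.02 over all genes. The groups did not overlap for 3 of the 71, against 2.2% of all genes and 0.944% for lower ones. Other checkpoint genes, 10 of them measured, had a median of 0.02. The dynein adaptor genes Spdl1 (0.04 ± 0.0292) and Zw10 (-0.06 ± 0.0425), through which checkpoint proteins are stripped from attached kinetochores, had the smallest p among them (limma adjusted p = 0.504 for each). With centred arrays Spdl1 differed by 0.0043 and Zw10 by -0.10, and Zw10 by -0.04 without homozygous embryo 3.

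Of 18 other kinetochore genes, 14 had a difference below 0 (77.8%, against 38.6% of all genes), and the median was -0.04. Mis12, of the platform that joins the Ndc80 complex to the centromere, had 8.91, 9.02 and 9.16 in homozygous embryos, against 9.11, 9.28 and 9.36 in wild-type embryos, a difference of -0.23 ± 0.0542 (limma adjusted p = 0.0818). Ska2, of the complex that tracks microtubule ends, had 10.56, 10.63 and 10.65 in homozygous embryos, against 10.66, 10.76 and 10.79 in wild-type embryos, a difference of -0.13 ± 0.0307 (limma adjusted p = 0.0871). The groups of Ska2 did not overlap, nor did those of Cenpl (-0.14 ± 0.0395, limma adjusted p = 0.141), named after its values were seen. These were 2 of the 18 genes, against 2.2% of all genes without overlap and 0.944% for lower ones. For Mis12, 4 of 6 homozygous embryos lay below the lowest wild-type embryo. Mis12 and Ska2 both passed when probe sets dimmer than the median were left out. They also passed when each array was centred on its median (limma adjusted p = 0.0357 for Mis12 and 0.0209 for Ska2). Without wild-type embryo 3 they passed as well (limma adjusted p = 0.0435 for Mis12 and 0.0471 for Ska2).

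The anaphase-promoting complex, the ubiquitin ligase that the checkpoint restrains, had 13 of 17 measured genes below 0 (76.5%) and a median of -0.04. Its smallest p were those of Anapc10 (-0.18 ± 0.0567) and Anapc7 (0.09 ± 0.0296), with limma adjusted p of 0.172 and 0.205. Condensin and cohesin, which shape and hold sister chromatids, had a median of -0.04 over 10 genes. Smc4, a core subunit of condensin, had 11.49, 11.54 and 11.60 in homozygous embryos, against 11.60, 11.63 and 11.69 in wild-type embryos, without overlap, a difference of -0.09 ± 0.0260 (limma adjusted p = 0.131). Smc4 passed with each array centred on its median (limma adjusted p = 0.0405). Ncaph2, of condensin II, differed by 0.15 ± 0.0459 (limma adjusted p = 0.157). The 16 genes of G2 control and of the transcription of mitotic genes had a median of -0.0016, among them Foxm1 (0.06 ± 0.0260) and the checkpoint kinase Chek1 (-0.08 ± 0.0382), with limma adjusted p of 0.288 and 0.328. Without wild-type embryos 1 and 2 the difference was -0.09 for Anapc10, -0.10 for Zw10, 0.04 for Foxm1 and -0.05 for Chek1, and none passed.

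**Figure D5:**
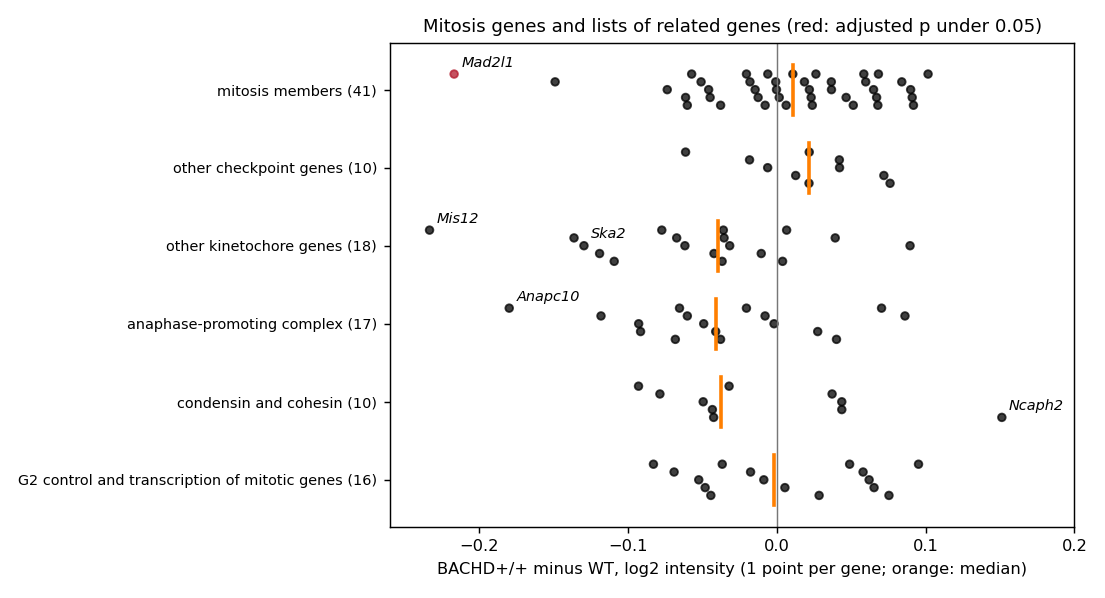
Difference in log2 intensity, homozygous BACHD+/+ minus wild type (horizontal axis), 1 point per gene, for the members and for the 5 further lists (down the page, with the number measured), with the median of each in orange. Mad2l1 (-0.22) lies apart from the other members, and among the other kinetochore genes Mis12 has the lowest difference (-0.23), with Cenpl (-0.14, not named in the plot) and Ska2 (-0.13) next.

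Markers of progenitors and of other cell types were read beside these results, as summed linear intensities. Markers of radial glia, the dividing cells, summed to 25903 to 27143 in homozygous embryos and 26211 to 27539 in wild-type embryos, and none of 9 passed. An unadjusted p under 0.05 was reached by 4 of the 9 (44.4%), against 15.1% of all genes. These were Hes5 (0.15 ± 0.0419) and, named after their values were seen, Slc1a3 (-0.16 ± 0.0495), Fabp7 (-0.41 ± 0.128) and Hes1 (-0.12 ± 0.0435), with limma adjusted p of 0.121, 0.154, 0.163 and 0.217. Brighter markers weigh more in such sums. An unadjusted p under 0.05 was also reached by 4 of 10 markers of postmitotic neurons, 3 of 4 of pallial neurons and 2 of 4 erythroid markers. The same held for 2 of 10 markers of the ganglionic eminence and 2 of 6 endothelial markers. It held for 1 of 5 microglial, 1 of 5 choroid plexus and 0 of 4 meningeal markers. Markers of postmitotic neurons summed to 37013 to 39583 and 37889 to 38994, and 1 of 10, the neurofilament gene Nefl, fell by 0.42 ± 0.0653 on the log2 scale (limma adjusted p = 0.0273). Of the 4 neuron markers with an unadjusted p under 0.05, 1 was higher and 3 lower. Besides Nefl these were, named after their values were seen, Map2 (0.09 ± 0.0263), Nefm (-0.21 ± 0.0454) and Gap43 (-0.19 ± 0.0619). Their limma adjusted p were 0.131, 0.0552 and 0.186. Markers of pallial neurons summed to 3122 to 3514 in homozygous embryos and 3227 to 4591 in wild-type embryos, and erythroid markers to 1940 to 2518 and 2120 to 3939, with none of 4 past the threshold in either list. All 4 pallial differences were below 0, against 38.6% of all genes. Neurod6 had the smallest p among them (-0.36 ± 0.105, limma adjusted p = 0.145). Endothelial markers summed to 2178 to 2264 and 2092 to 2257, microglial markers to 1189 to 1407 and 1263 to 1429, and meningeal markers to 688 to 769 and 643 to 748, none passing. None of 5 choroid plexus markers was brighter than the median probe set (458 to 553 and 475 to 504). The part of these cell types in the Mad2l1 difference was not tested.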

How the data were processed

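The authors deposited log2 intensities, with 1 value for every probe set on each array, and the scale was read from the values. Per the submitters' processing notes the authors used Partek 6.4 and RMA, and their settings were not given in the sources used here. Such normalization evens out the distributions of arrays, so a change common to all genes may not show. Each of 29214 probe sets was fitted with limma 3.58.1 in R 4.3.3 (lmFit, eBayes with an intensity trend), genotype the only factor and 6 arrays a group, with 2-sided p adjusted by Benjamini-Hochberg over all probe sets. Differences are homozygous minus wild type. The platform annotation gave 1 gene for 15310 probe sets, several for 323 and none for 13581, and 319 rows equalled another row. Arrays have no read depth, and the number of arrays limits the precision. The members and gene lists were chosen with earlier results of these data known, so no count over them is independent support.

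Values per embryo are given, by rule, for checkpoint and kinetochore members and for the 8 further members with the smallest p, and from each further list the 2 genes with the smallest p are named. Per the labels each sample is 1 embryo; they give no dam or sex per embryo, so litter was not modelled and the fit treats possible littermates among the offspring of 3 dams as independent. No 2 arrays were copies (SD of the closest pair 0.146). Alternatives changed the scaling, the filter on dim probe sets, the variance model, array weights, the probe set per gene and the arrays used; leaving out wild-type embryos 1 and 2 was chosen after seeing the data. The fit was tested on simulated data for 6 arrays against 6: of 50 planted differences each of 0.2, 0.3, 0.5 and 1 on the log2 scale it called 16, 31, 43 and 50, with 9 false calls among 29214 probe sets. The simulated noise was independent between probe sets and between arrays, unlike that of the real arrays, so these counts are not error rates of the real data. Plots were made in Python 3.11.15 (matplotlib 3.10.9).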

Additional observations from a re-analysis of the deposited data

Results flagged for a closer look

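In 54 groups of 6 embryos examined gene by gene, 3 held an embryo whose gap to its nearest neighbour took up more of the range than Dixon's 95% critical value for 6 values, where chance gives about 1 group in 20. Cdca8 was lowest in homozygous embryo 6, at 9.85, with the nearest embryo at 9.93. Kif11 was lowest in wild-type embryo 1, at 10.72, with the nearest at 10.81. Anapc10 was highest in homozygous embryo 4, at 9.44, with the nearest at 9.33.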

How the results depend on the processing

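The difference of Mad2l1 kept its sign in all settings tried. It stayed at -0.22 but missed the threshold with a replicate block (limma adjusted p = 0.0694, 0 members called) and without an intensity trend (0.0596, 0 members called). Leaving out 1 embryo at a time gave -0.23 to -0.20 (adjusted p 0.0163 to 0.0621), with 0 to 1 members and 0 to 2 genes of the further lists called, a median of the members of 0.0038 to 0.027, and Mad2l1 against the other 8 genes at -0.25 to -0.22. The deviations of same-numbered embryos of both groups correlated at -0.0817 to 0.256, highest for number 3, whose closest wild-type embryo shared its number. Wild-type embryo 3 was also the closest to homozygous embryos 2 and 4. The labels give no pairing by number. Whether same-numbered embryos shared a batch or litter was not tested. Counts of probe sets called were 124 in the fit reported, 18 with the replicate block, 255 without dim probe sets, 302 centred, 3 without an intensity trend, 74 without variance moderation, 414 with array weights, 33 with the dim and bright covariate, 582 without wild-type embryos 1 and 2 (2 members called), and 4 to 200 with 1 embryo left out. Of the further lists 2 genes passed without dim probe sets, 3 with centred arrays and 1 (Ska2, adjusted p = 0.0446) with array weights. Centred arrays moved the members' median to -0.027 and that of all genes to -0.017, and turned Ttk to -0.036 and Nuf2 to -0.014. Quantile normalization turned Bub1b to 0.0023, and the dim and bright covariate and leaving out wild-type embryos 1 and 2 turned Ttk to -0.0093 and -0.0078. With 1 embryo left out, Bub1 ranged over -0.038 to 0.014, Bub1b over -0.042 to 0.027 and Ttk over -0.016 to 0.012, and none passed. The causes were not tested. All measured members were brighter than the median probe set, and the number of arrays limited precision, with a median SE of 0.0340 for a member's difference.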
